A study of Bos taurus with 18 samples.

Results

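The mitochondrial ribosome and the mitochondrial protein import machinery were followed in cells from cow's milk through 85 genes of the 9155 genes that the array names. The 85 are every gene with a symbol beginning MRPL (43 genes), MRPS (24), TIMM (11) or TOMM (7) that a probe set named as its only gene. The array carries 106 probe sets for them, and for each gene the one brightest on average across the 18 arrays was used, whichever group was high. No measured difference entered the rule, but the members were chosen with earlier results of these data known. TOMM20, TIMM17A and MRPS12 were not among the symbols that the rule found.

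RNA was measured on 18 Affymetrix bovine arrays, 1 for each of 6 dairy cows with mastitis, 6 with endometritis and 6 healthy cows. Mastitis is an inflammation of the udder, and endometritis affects the lining of the uterus, an organ that sheds no cells into milk. Milk cells are a mixture of macrophages, lymphocytes, neutrophils and epithelial cells from the udder. The labels name no treatment, breed, pathogen or severity for either disease, and no sorting of the cells. Both diseased groups are described as in lactations 1 to 8 and 10 to 220 days after calving, with no age. Healthy milk held fewer than 100000 cells per ml. Its cows are given as 2 to 4 years old, mostly 10 to 100 days after calving, with 1 cow in its 8th lactation, which does not go together with that age. Stage of lactation and age could therefore differ between the groups, and their part in the results was not tested.

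Mitochondria keep a small genome that encodes a few membrane subunits of the respiratory chain and the ATP synthase. These are made inside the organelle on the mitochondrial ribosome, whose RNA is mitochondrial but whose proteins are all encoded in the nucleus, made in the cytosol and imported. The large subunit (the MRPL proteins, with MRPS18A and MRPS30 in spite of their names) joins amino acids, and the small subunit (the MRPS proteins) reads the message. Precursors enter mitochondria through the TOM complex of the outer membrane. They then cross the inner membrane through TIM23 into the matrix, are inserted into it by TIM22, or are carried between the membranes by the small TIM chaperones. Milk secretory cells carry much energy-demanding synthesis, whereas neutrophils are known for few mitochondria and for living from glycolysis.

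All values are log2 levels of normalised array intensity, and 1 log2 unit is a 2-fold difference. The median of all values on all arrays, 2.55, was taken as background. Of the 85 genes, 78 were above it on all 18 arrays and all 85 on at least 6 arrays. Differences were tested with limma over all 24016 probe sets, with Benjamini-Hochberg adjustment within each comparison, and a gene is said to have risen or fallen where its adjusted p was under 0.05. Because probe sets differ in brightness, levels are compared between groups for 1 gene and not between genes. P-values weigh a difference between groups against the spread between cows.

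Healthy array 3 and endometritis array 3 stood apart from the rest. Their values over all probe sets had SDs of 1.57 and 1.56, against 1.65 to 1.76 on the other 16 arrays. The counts are therefore also given without both arrays. The groups also differed in the cells they held. In mastitis milk 7 of 9 measured neutrophil markers rose against healthy milk (median log2 difference 4.56), and the log2 of their summed level was 12.8 to 14.8 in mastitis, 7.78 to 11.4 in endometritis and 8.69 to 11.6 in healthy milk. Of 15 markers of the milk secretory cell, 14 fell in mastitis (median -6.15), with log2 summed levels of 10.6 to 14.2 in mastitis, 15.2 to 16.8 in endometritis and 16.1 to 16.8 in healthy milk. Of 10 epithelial markers 6 fell in mastitis, with log2 summed levels of 6.04 to 6.48 in mastitis, 6.85 to 10.1 in endometritis and 8.07 to 10.4 in healthy milk. Of 8 macrophage and 10 T cell markers 0 passed, and of 4 B cell markers only BLK rose. Among all 9155 genes 11.3% were called higher and 15.8% lower in mastitis than in healthy milk. No neutrophil, macrophage or secretory marker was at background on all 6 arrays of a group. KRT8 was so in every group, KRT14 in endometritis and healthy milk, CLDN3 in mastitis, CD4 in every group, CD79A and CR2 in healthy milk and MS4A1 in endometritis. In endometritis against healthy milk no gene of these lists passed. Fewer cells of a type and less RNA per cell cannot be told apart in these mixed samples, and the part of the cell types in the results below was not tested.

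Mastitis against healthy milk asked how the 2 machineries stood in milk from an inflamed udder. In mastitis 56 of the 85 genes fell and 0 rose, which is 65.9% lower where 15.8% of all 9155 genes were called lower and 11.3% higher. Among the 6402 genes above background on at least 6 arrays, 22.5% were called lower. Of the 85 differences 77 were below 0, as were 54.6% of all genes. The median log2 difference of the 85 genes was -0.83, beside -0.01 for all genes. Of the 56, 39 fell at least 2-fold, a fall that 9.91% of all genes showed. In 28 genes every mastitis array lay below every healthy array, as in 9.7% of all genes. In 55 of the 56 all 6 mastitis arrays lay below the healthy mean, and in MRPL3, a core protein of the large subunit, 5 of 6 did.

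These counts depended on how arrays and RNA quality were treated. With arrays scaled to the hybridisation controls that are added to each sample, 18 genes fell (21.2%, with 6.4% of all genes lower). That scaling raised the mastitis minus healthy difference of the median gene above background by 0.26. It shifted all genes of an array by the same amount, so the members' median had to stay 0.75 log2 units below that gene's. With this scaling the members' median was -0.57 and 69 differences were below 0. The Dap controls, other control probe sets of the array, differed more between mastitis and healthy milk than the hybridisation controls. Their mean log2 signal was 5.94 ± 0.42 in mastitis, 6.85 ± 0.80 in endometritis and 7.32 ± 0.86 in healthy samples (SD, n = 6 each). It was 6.58 at most on mastitis arrays and 6.68 at least on healthy arrays. No scaling to the Dap controls was run, and their part in the result was not tested. With the GAPDH control signal at the 3′ end minus that at the 5′ end, a measure of RNA integrity, as a covariate, 17 genes fell (20%, with 4.69% of all genes lower), while the members' median was -0.72 and 78 differences were below 0. That difference was 0.39 ± 0.23 in mastitis, 0.58 ± 0.25 in endometritis and 0.88 ± 0.40 in healthy samples (SD, n = 6 each), so it moved with the groups, and its part in the result was not tested beyond this fit. Without healthy array 3 and endometritis array 3, 52 genes fell.

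**Figure D1:**
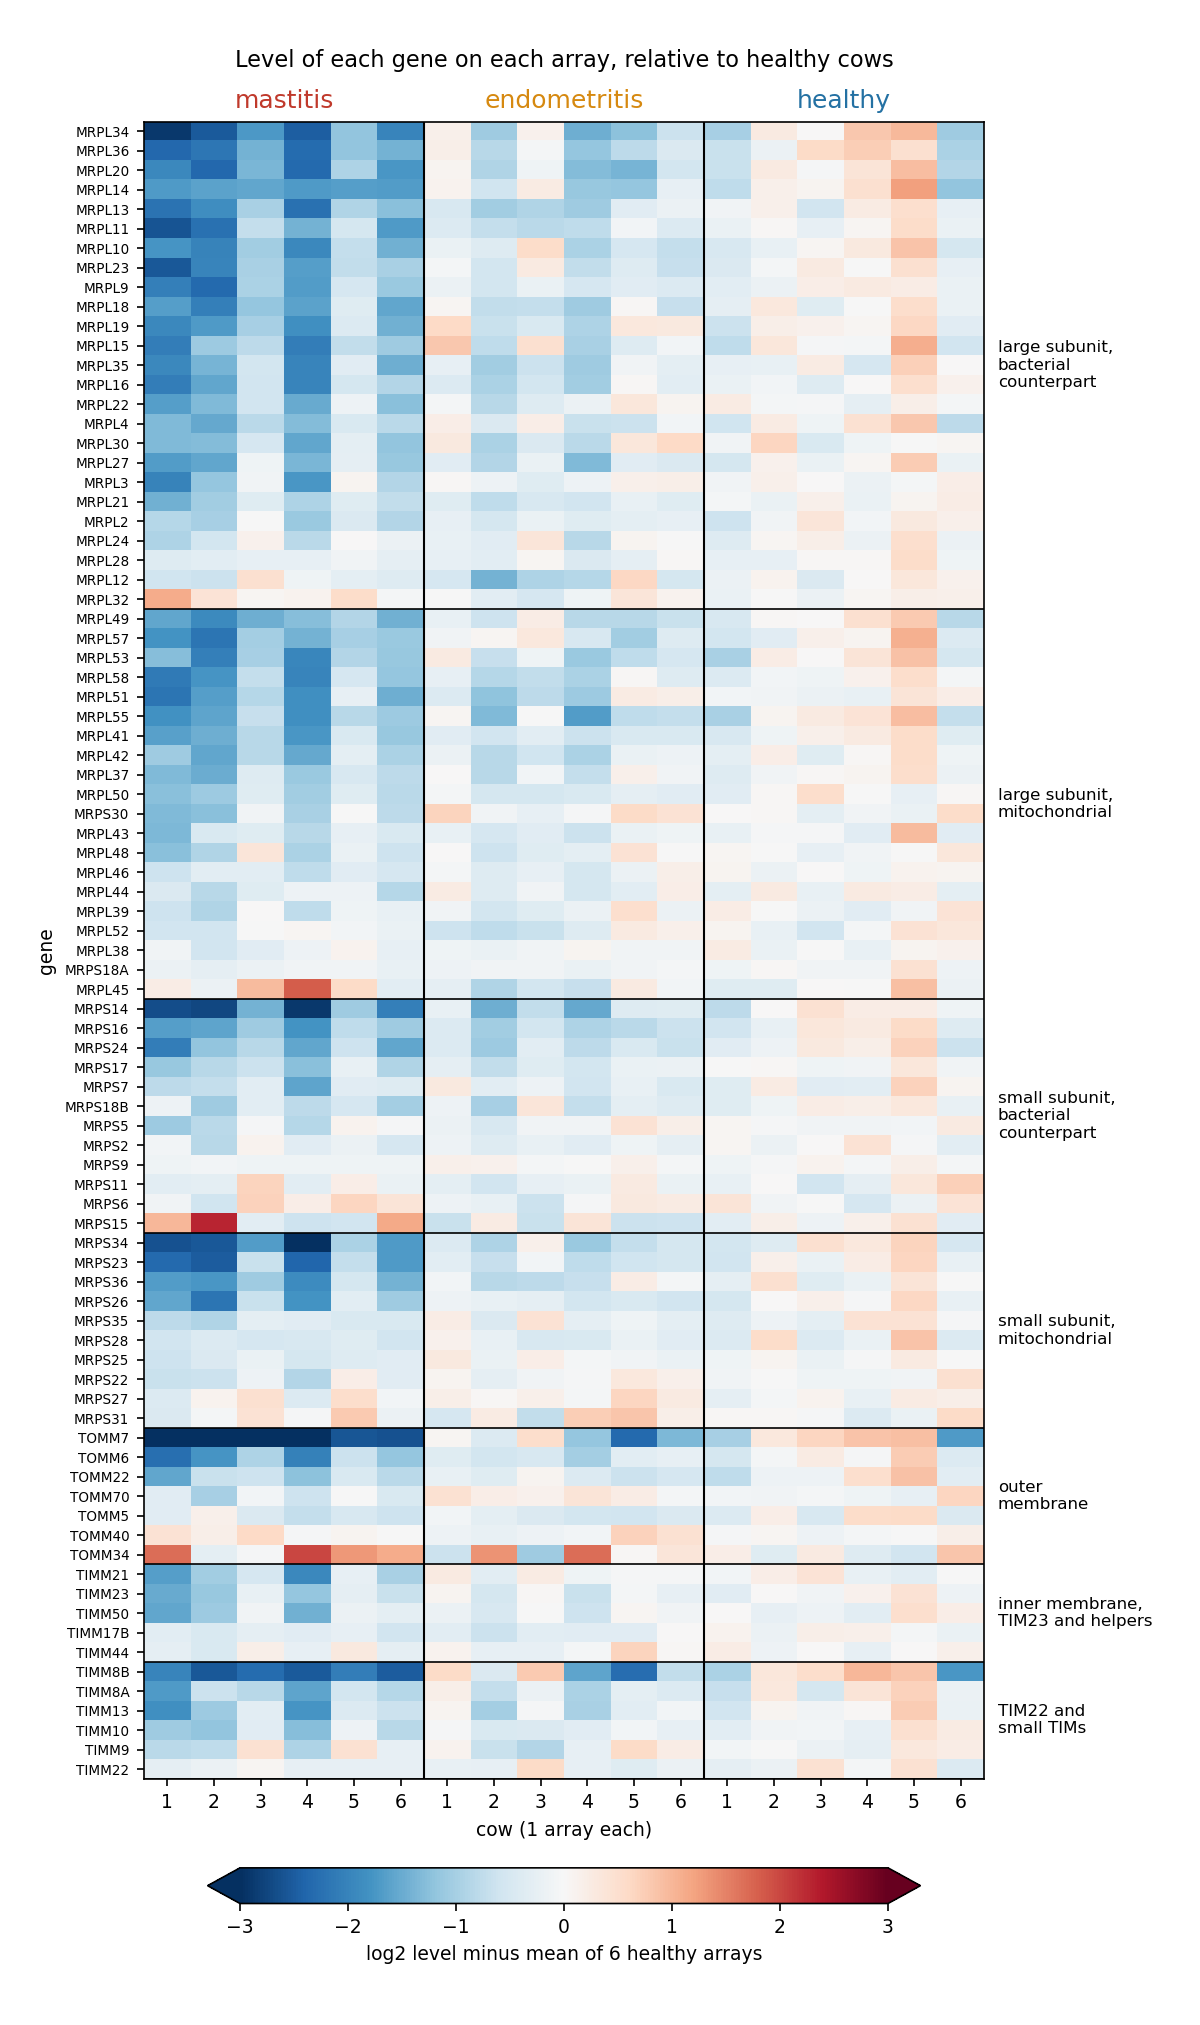
Log2 level of each of the 85 genes (rows, grouped by role) on each of the 18 arrays (columns: 6 mastitis, 6 endometritis, 6 healthy), minus the gene's mean over the 6 healthy arrays. Blue is below and red above the healthy mean, and values beyond 3 log2 units share the end colour. On mastitis arrays 70 to 82 of the 85 genes were below their healthy mean, on endometritis arrays 53 to 80 and on healthy arrays 16 to 70.

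In the large ribosomal subunit 33 of 45 measured genes (73.3%) fell in mastitis against healthy milk, with a median difference of -1.04. Among the 25 with a counterpart in the bacterial ribosome, 21 fell (84%, median -1.28). Among the 20 found only in mitochondria, 12 fell (60%, median -0.78). Beside these shares stand 15.8% of all genes and 22.5% of genes above background. The genes with the largest falls among those with a bacterial counterpart were MRPL34, MRPL36, MRPL20, MRPL14 and MRPL13.

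MRPL34, one of the smallest proteins of the subunit, had a lowest, median and highest level of 3.10, 3.76 and 4.81 in mastitis, 4.53, 5.13 and 6.14 in endometritis, and 4.91, 6.13 and 6.97 in healthy milk. It was 4.37-fold lower in mastitis than in healthy milk (log2 difference -2.13, SE 0.42, adjusted p = 0.00209), and the mastitis and healthy arrays did not overlap. MRPL36, another small and conserved protein, had 3.04, 3.60 and 4.20 in mastitis, 4.23, 4.78 and 5.57 in endometritis, and 4.45, 5.54 and 6.13 in healthy milk. It was 3.51-fold lower in mastitis (-1.81, SE 0.33, adjusted p = 0.00125), and here the mastitis arrays lay below all arrays of both other groups.

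MRPL14, an interface protein that contacts the small subunit, had levels of 2.71, 2.75 and 2.85 in mastitis, 3.25, 3.99 and 4.66 in endometritis, and 3.22, 4.52 and 5.65 in healthy milk. All 6 mastitis arrays lay close together and near background, while the other groups were spread widely and shared no value with them (-1.65, SE 0.35, adjusted p = 0.00328 against healthy). Its second probe set, above background on 0 of 18 arrays, had a difference of -0.01. MRPL20 and MRPL13 fell by 1.78 (SE 0.35, adjusted p = 0.0021) and 1.58 (SE 0.27, adjusted p = 0.000721), both with no overlap with healthy arrays. With the GAPDH covariate the calls of MRPL34, MRPL14 and MRPL20 were lost (adjusted p of 0.0676, 0.1 and 0.0659), and those of MRPL36 and MRPL13 were not.

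Not all of the large subunit fell. MRPL12, which sits on the stalk that recruits translation factors and also binds the mitochondrial RNA polymerase, had levels of 3.77, 4.09 and 4.90 in mastitis, 3.00, 3.73 and 5.04 in endometritis, and 4.00, 4.48 and 4.76 in healthy milk. The groups overlapped, and its difference of -0.26 (SE 0.28, adjusted p = 0.573) did not pass. It was 0.00081, just above 0, with scaling to hybridisation controls. MRPL46, found only in mitochondria, fell by 0.47 (SE 0.11, adjusted p = 0.00641), although its second probe set, never above background, had a difference of 0.02. Its call was lost with scaling to hybridisation controls (-0.21, adjusted p = 0.587) and with the GAPDH covariate, where the difference was -0.49 (adjusted p = 0.0547).

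In the small subunit, with MRPS36 counted by its name, 12 of 22 measured genes (54.5%) fell, with a median difference of -0.51. These were 6 of the 12 listed with a bacterial counterpart (50%) and 6 of the 10 listed as found only in mitochondria (60%). Of all genes 15.8% were lower, and of genes above background 22.5%. The subunit held both some of the largest falls and many genes near 0. MRPS14, which lies in the head of the subunit beside the decoding site, had levels of 3.56, 4.10 and 5.39 in mastitis, 4.92, 5.91 and 6.23 in endometritis, and 5.67, 6.58 and 6.92 in healthy milk. It was 4.42-fold lower in mastitis than in healthy milk, with no overlap (-2.14, SE 0.34, adjusted p = 0.000513). Its chosen probe set is of a design that may match related sequences. Its second probe set, of the gene-specific design, also fell (-1.62, adjusted p = 0.00153).

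MRPS34, which stabilises the small ribosomal RNA, had 2.88, 3.74 and 4.92 in mastitis, 4.76, 5.25 and 6.01 in endometritis, and 5.31, 5.83 and 6.52 in healthy milk. It was 4.22-fold lower in mastitis than in healthy milk, again with no overlap (-2.08, SE 0.34, adjusted p = 0.00057). Its second probe set, above background on 1 array, had a difference of -0.05. MRPS23, a protein found only in mitochondria, fell by 1.72 (SE 0.32, adjusted p = 0.00149). MRPS36, which carries the ribosomal name but is known as a component of the 2-oxoglutarate dehydrogenase complex, fell by 1.39 (adjusted p = 0.00122) and was chosen after its value was seen. MRPS35 passed narrowly (-0.54, SE 0.18, adjusted p = 0.0443), and its second probe set, at or near background, had a difference of 0.10. Its call was lost when any 1 of 12 arrays was left out (healthy 2, 4, 5 and 6, mastitis 1, 2, 4, 5 and 6, endometritis 4, 5 and 6), with adjusted p of 0.0511 to 0.107, and in 7 of the 10 other alternatives.

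A difference above 0 in mastitis was seen in 8 genes, and none passed: TOMM34 (0.96), MRPL45 (0.51), MRPS15 (0.48), MRPL32 (0.36), MRPS6 (0.21), TOMM40 (0.21), MRPS31 (0.09) and MRPS27 (0.03). Apart from TOMM40 they were chosen after their values were seen. MRPS15, which binds the small ribosomal RNA, ranged most widely, with 5.75 to 8.66 in mastitis, 5.69 to 6.76 in endometritis and 6.04 to 6.83 in healthy milk. TOMM34, a cytosolic cochaperone that carries the TOM name, had 4.51, 6.01 and 6.80 in mastitis, 3.73, 5.01 and 6.48 in endometritis, and 4.23, 4.73 and 5.63 in healthy milk, so the groups overlapped (SE 0.50, adjusted p = 0.22).

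**Figure D2:**
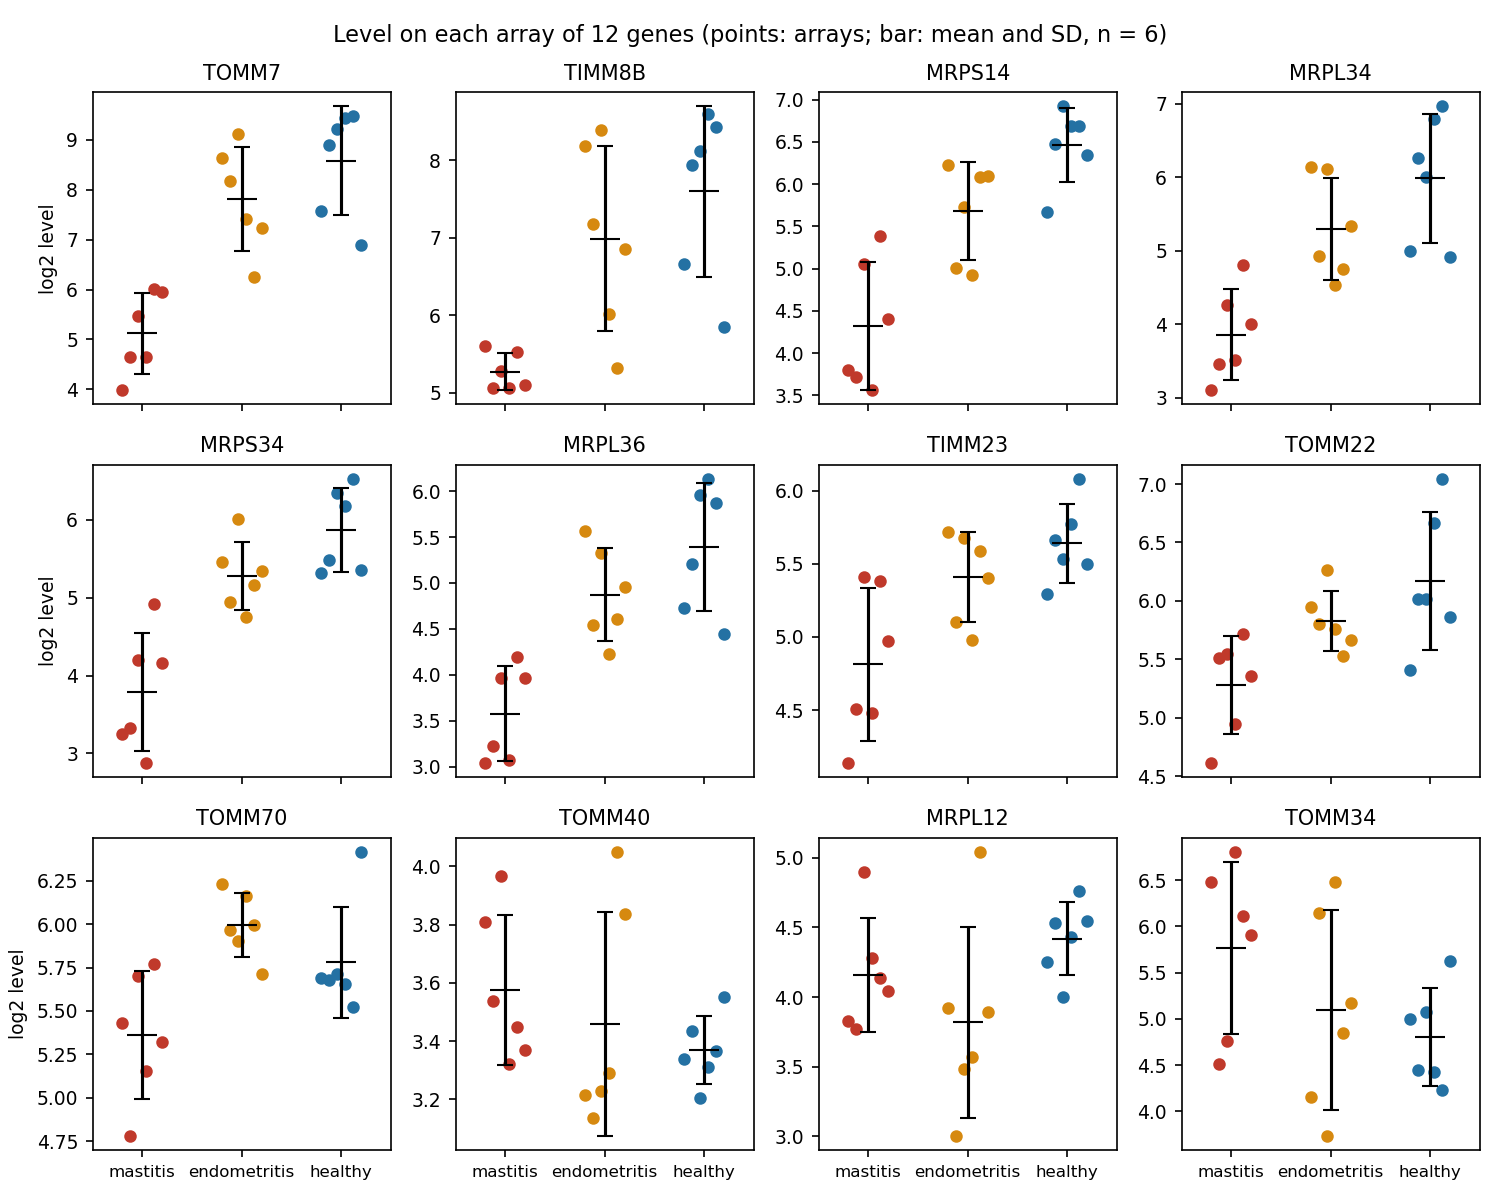
Log2 level on each array (points) of 12 genes in mastitis, endometritis and healthy milk, with the mean and SD of the 6 arrays of each group (bars). Each panel has its own axis. TOMM7, TIMM8B, MRPS14, MRPL34, MRPS34 and MRPL36 show no overlap of mastitis with healthy arrays, TIMM23, TOMM22 and TOMM70 overlap in part, and TOMM40, MRPL12 and TOMM34 overlap widely.

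Of the 18 import genes, with TOMM34 counted by its name, 11 fell in mastitis against healthy milk (61.1%, median -0.79). Beside this share stand 15.8% of all genes and 22.5% of genes above background. In the TOM group 3 of 7 (42.9%) fell, TOMM7, TOMM6 and TOMM22. Its members ranged from -3.46 for TOMM7 to 0.96 for TOMM34, and the next highest was TOMM40 with 0.21. TOMM7, a small subunit that tunes the assembly of the complex and holds the kinase PINK1 at the outer membrane of damaged mitochondria, showed the largest fall of all 85 genes. Its levels were 3.98, 5.07 and 6.01 in mastitis, 6.26, 7.80 and 9.11 in endometritis, and 6.89, 9.06 and 9.48 in healthy milk. Every mastitis array lay below every array of both other groups, and the gene was 11.0-fold lower in mastitis than in healthy milk (-3.46, SE 0.56, adjusted p = 0.000556). TOMM7 passed in mastitis against healthy milk in all 28 alternatives.

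TOMM22, the receptor at the centre of the complex, had 4.61, 5.44 and 5.72 in mastitis, 5.52, 5.78 and 6.26 in endometritis, and 5.41, 6.02 and 7.04 in healthy milk. It fell by 0.88 (SE 0.25, adjusted p = 0.0201), with overlapping arrays, and lost its call without healthy 4 (adjusted p = 0.0528), without mastitis 1 (0.0502) and in 4 other alternatives. TOMM40, the pore itself, had 3.32, 3.49 and 3.97 in mastitis, 3.13, 3.26 and 4.05 in endometritis, and 3.20, 3.35 and 3.55 in healthy milk. Its difference of 0.21 (SE 0.16, adjusted p = 0.427) did not pass and its 95% interval ran from -0.12 to 0.54. TOMM70, the receptor for carrier proteins, had 4.78, 5.38 and 5.77 in mastitis, 5.72, 5.98 and 6.23 in endometritis, and 5.52, 5.68 and 6.42 in healthy milk. It did not pass against healthy milk (-0.42, SE 0.17, adjusted p = 0.106), but did with median centring (0.0423) and quantile normalisation (0.0249). Its second probe set had a difference of 0.31 that did not pass.

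At the inner membrane 4 of the 5 measured genes of TIM23 and its helpers (80%) fell, beside 15.8% of all genes. TIMM23, the channel for proteins bound for the matrix, had 4.14, 4.74 and 5.41 in mastitis, 4.98, 5.49 and 5.72 in endometritis, and 5.29, 5.60 and 6.08 in healthy milk. It was 1.77-fold lower in mastitis than in healthy milk (-0.83, SE 0.22, adjusted p = 0.0134), with overlap. Its call was lost with scaling to hybridisation controls (adjusted p = 0.462), array weights (0.0541) and the GAPDH covariate (0.257). TIMM50, the receptor that hands precursors to the channel, fell by 0.78 (SE 0.26, adjusted p = 0.0422). That call was lost when any 1 of 11 arrays was left out (healthy 1, 2, 3, 5 and 6, mastitis 1, 2 and 4, endometritis 1, 2 and 6), with adjusted p of 0.0503 to 0.101, and in 5 other alternatives (up to 0.514). TIMM21, a regulatory subunit, fell by 1.06 (SE 0.24, adjusted p = 0.00539), and TIMM17B, a part of the channel, by 0.37 (SE 0.10, adjusted p = 0.0118). TIMM44, the anchor of the import motor, had 2.89, 3.09 and 3.64 in mastitis, 3.11, 3.34 and 4.00 in endometritis, and 3.09, 3.36 and 3.57 in healthy milk, and did not pass (-0.13, SE 0.16, adjusted p = 0.63). With scaling to hybridisation controls its difference was 0.13.

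Of the 6 measured genes of TIM22 and the small chaperones 4 fell (66.7%, beside 15.8% of all genes): TIMM8B, TIMM8A, TIMM10 and TIMM13. TIMM8B, which with TIMM13 escorts hydrophobic precursors to the inner membrane, had 5.06, 5.19 and 5.61 in mastitis, 5.32, 7.01 and 8.38 in endometritis, and 5.84, 8.03 and 8.60 in healthy milk. It was 5.01-fold lower in mastitis than in healthy milk (-2.33, SE 0.54, adjusted p = 0.00609). The 6 mastitis arrays lay close together and below every healthy array, whereas endometritis and healthy arrays spread over more than 2 log2 units. With the GAPDH covariate its call was lost (adjusted p = 0.169).

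TIMM13 fell by 1.01 (SE 0.31, adjusted p = 0.0289) but lost its call without healthy 2, 4 or 5 or mastitis 1, 2 or 4, with adjusted p of 0.0533 to 0.073, and in 4 other alternatives, the 12 arrays alone, scaling to hybridisation controls, array weights and the GAPDH covariate (0.0525 to 0.368). TIMM10, which with TIMM9 forms the ring that escorts carrier proteins, had 2.88, 3.22 and 4.01 in mastitis, 3.70, 3.86 and 4.13 in endometritis, and 3.85, 4.06 and 4.65 in healthy milk. It fell by 0.81 (SE 0.19, adjusted p = 0.00734), a call lost with scaling to hybridisation controls (-0.55, adjusted p = 0.514) and with the GAPDH covariate, where the difference was -0.85 (adjusted p = 0.0562). Its partner TIMM9 had a difference of -0.31 (SE 0.29, adjusted p = 0.517), and TIMM22, the insertion channel, one of -0.19 (SE 0.17, adjusted p = 0.506). Neither passed, and TIMM22 was above 0 with scaling to hybridisation controls (0.074) and with the GAPDH covariate (0.11).

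**Figure D3:**
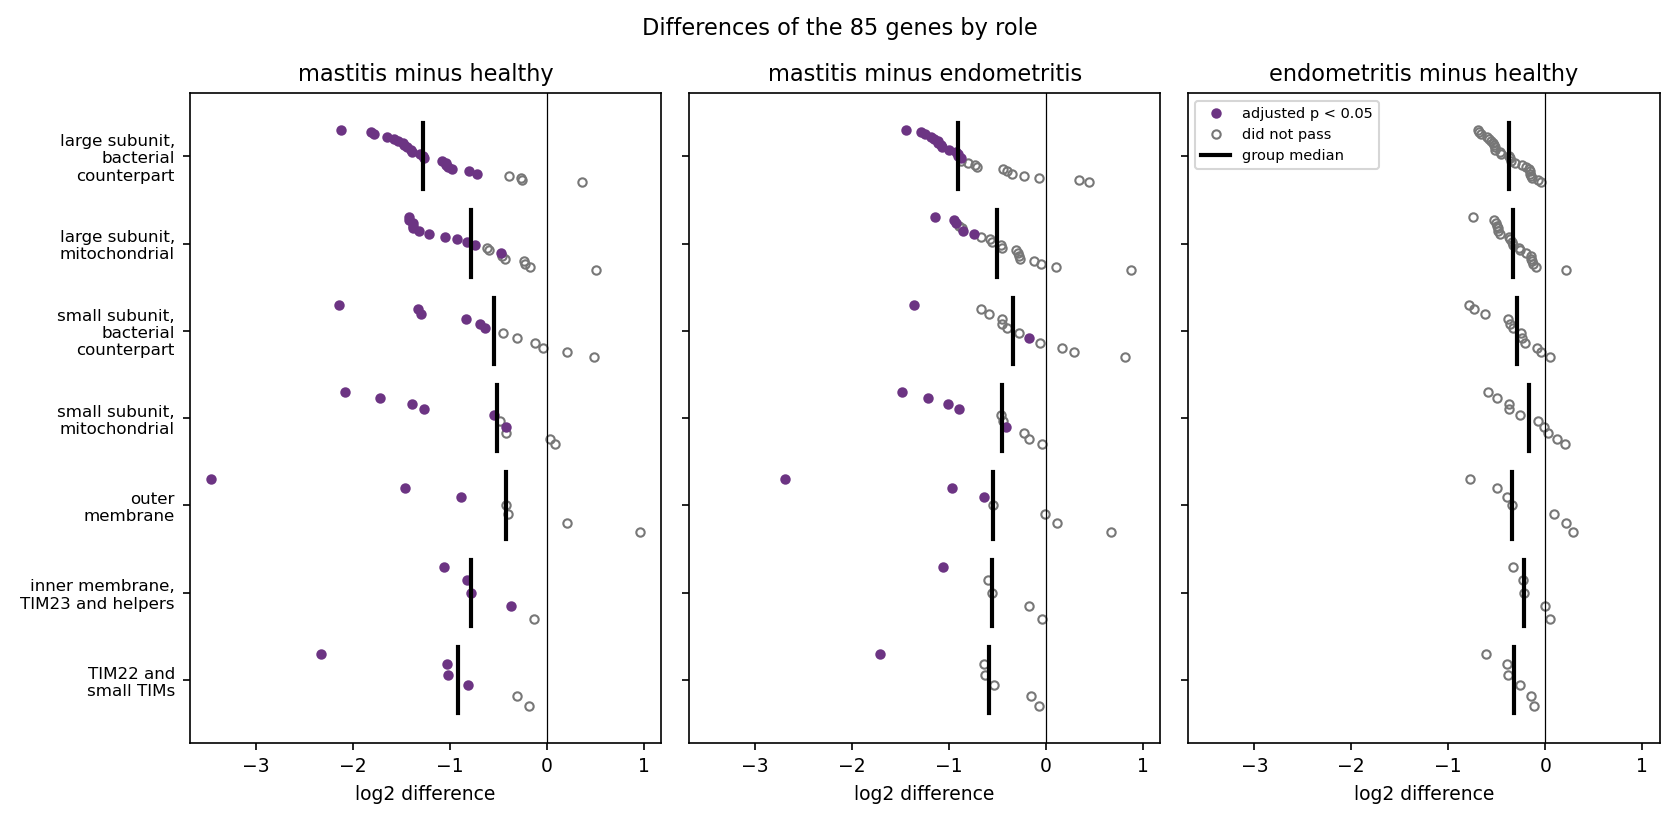
Log2 differences of the 85 genes (points), by role, in mastitis minus healthy, mastitis minus endometritis and endometritis minus healthy milk. Filled points passed at an adjusted p under 0.05, open points did not, and the bar is the median of the role. Role medians run from -1.28 to -0.42 in mastitis minus healthy and from -0.37 to -0.17 in endometritis minus healthy, where no point is filled.

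Mastitis against endometritis compared inflamed udders with a disease outside the udder. In mastitis 31 of the 85 genes fell against endometritis and 0 rose, which is 36.5% lower where 10.9% of all genes were called lower and 9.14% higher, and 15.5% of the 6402 genes above background lower. Of the 85 differences 76 were below 0, as were 56.6% of all genes. The median difference was -0.56, beside -0.01 for all genes, and it was -0.34 with array weights. Of the 31, 18 fell at least 2-fold, as 6.77% of all genes did. In 6 of the 85 genes all mastitis arrays lay below all endometritis arrays, a share near the 5.96% of all genes. They were TOMM7, MRPL36, MRPL14, MRPL49, MRPS25 and MRPS9, of which MRPL49 and MRPS25 were chosen after their values were seen. Against endometritis 19 of the 45 large subunit genes fell (42.2%), 7 of the 22 small subunit genes (31.8%) and 5 of the 18 import genes (27.8%). This comparison shares its mastitis arrays with the one against healthy milk, and 29 genes passed in both.

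The count against endometritis rested on single arrays more than the one against healthy milk. It was 16 without mastitis 1, 17 without mastitis 2, 17 without mastitis 4, 16 without endometritis 1 and 19 without endometritis 3. It was 44 at most, without mastitis 5. Without mastitis 6, MRPL45 was called higher (1.04, adjusted p = 0.049), as it was with dim probe sets left out (0.88, adjusted p = 0.0443). MRPL45, which sits at the tunnel exit of the large subunit, was chosen after its values were seen. With scaling to hybridisation controls 5 genes fell: TOMM7, TIMM8B, MRPL34, MRPL36 and MRPS34. With array weights 15 fell, without healthy array 3 and endometritis array 3 also 15, with the GAPDH covariate 18, and with the 12 arrays of the 2 groups alone 20. As against healthy milk, 7 of 9 neutrophil markers were higher and 14 of 15 secretory markers lower in mastitis than in endometritis. Among all genes 9.14% were called higher and 10.9% lower in that comparison.

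TOMM7 was 6.44-fold lower in mastitis than in endometritis (-2.69, SE 0.56, adjusted p = 0.00456). The next largest falls were those of TIMM8B (-1.72, SE 0.54, adjusted p = 0.0426), MRPS34 (-1.49, SE 0.34, adjusted p = 0.00752) and MRPL34 (-1.44, SE 0.42, adjusted p = 0.0293). MRPS14 (-1.36), MRPL36 (-1.29), MRPL19 (-1.25), MRPS23 (-1.22), MRPL14 (-1.18) and MRPL15 (-1.16) followed, with adjusted p between 0.0136 and 0.0493. MRPL15 and MRPL19 are large subunit proteins with bacterial counterparts.

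Several of these calls passed narrowly. TIMM8B lost its call without healthy 2 or 3, any of the 6 mastitis arrays, or endometritis 1, 2, 3 or 6 (adjusted p of 0.0507 to 0.103). MRPL15 lost it without healthy 2, 3, 4 or 6, mastitis 1, 2, 4 or 6, or endometritis 1, 3, 5 or 6 (0.0524 to 0.118). MRPL14 lost it without mastitis 1, 2, 4 or 6 or endometritis 1, 3 or 6 (0.0518 to 0.0766), and MRPL34 without mastitis 1, 2 or 4 or endometritis 1 or 3 (0.0627 to 0.0746). In other alternatives TIMM8B lost its call in 5 (adjusted p up to 0.114), MRPL15 in 6 (up to 0.151), MRPL14 in 4 (up to 0.0914) and MRPL34 in 2 (up to 0.0957). MRPS23 lost its call in 4: with the 12 arrays alone, scaling to hybridisation controls, array weights, and healthy 3 and endometritis 3 left out (differences of -1.22 to -0.80, adjusted p of 0.0505 to 0.104). With scaling to hybridisation controls MRPS14 and MRPL19 lost theirs too, at differences of -1.26 (adjusted p = 0.0668) and -1.15 (adjusted p = 0.102). TIMM10 (-0.54, adjusted p = 0.0743) and TIMM23 (-0.60, adjusted p = 0.0828) did not pass with all arrays. Both passed without mastitis 3 or mastitis 5, with adjusted p of 0.0156 to 0.0366 for TIMM10 and 0.033 to 0.0355 for TIMM23.

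Against endometritis but not against healthy milk, 2 genes passed. TOMM70 fell by 0.63 (SE 0.17, adjusted p = 0.0193), with 6 of 6 mastitis arrays below the endometritis mean, and lost its call with scaling to hybridisation controls, array weights and the mean over its probe sets (0.0649 to 0.494). MRPS9, a small subunit protein, was at or under background on all 6 mastitis arrays, from 2.49 to 2.55, against 2.57 to 2.77 in endometritis and 2.49 to 2.80 in healthy milk. It was at least 1.09-fold lower in mastitis than in endometritis (fitted adjusted p = 0.0278), a bound set by the background median, and that call was lost without mastitis 1 or 4 or endometritis 1, 2 or 5 (0.0544 to 0.0712) and in 5 other alternatives (up to 0.93). Its other probe sets, above background on 3 arrays and 1 array, had differences of -0.04 and 0.005. Endometritis against healthy milk did not pass for either gene.

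**Figure D4:**
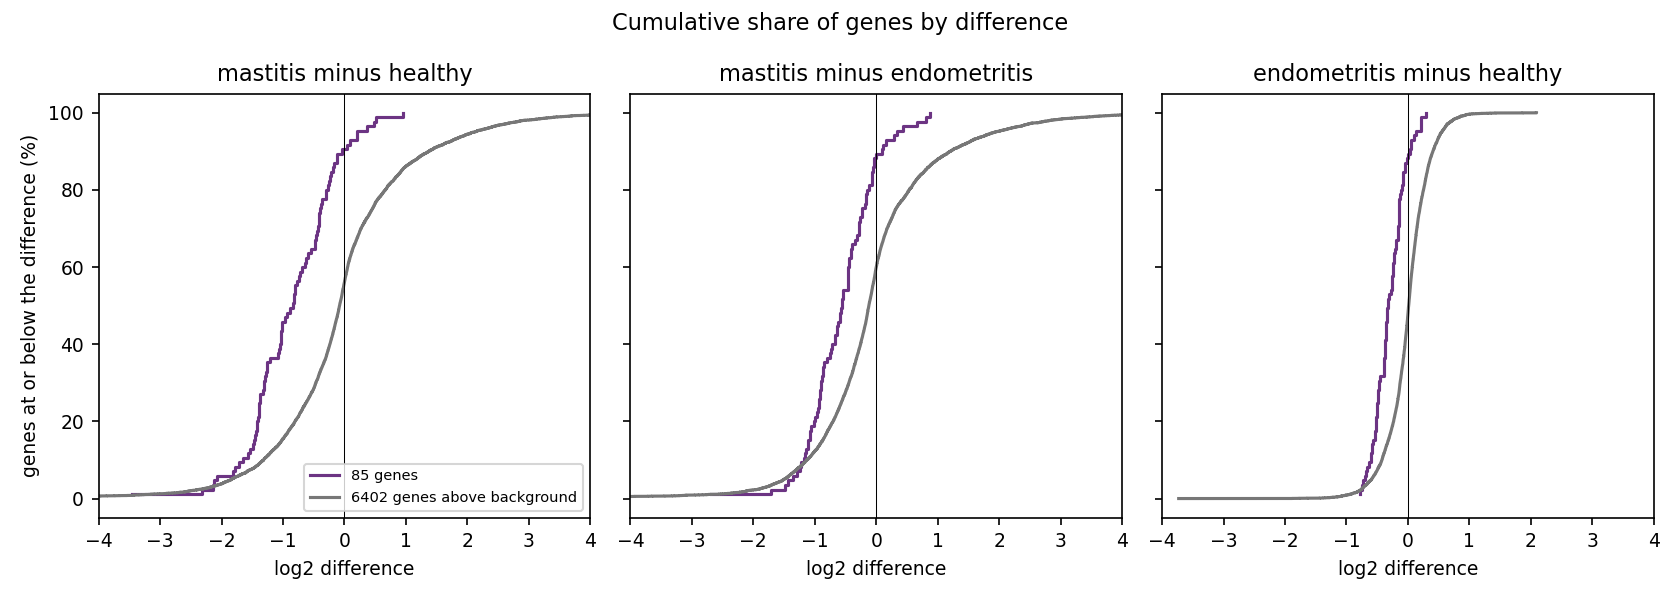
Cumulative share of genes (percent) at or below each log2 difference, for the 85 genes (purple) and the 6402 genes above background on at least 6 arrays (grey), in mastitis minus healthy, mastitis minus endometritis and endometritis minus healthy milk. A few genes outside -4 to 4 are not drawn. The purple medians lie at -0.83, -0.56 and -0.33, and the grey medians at -0.08, -0.12 and 0.01.

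Endometritis against healthy milk asked whether a disease outside the udder went with a difference in milk cells. With limma 0 of the 85 genes passed, and 0% of all genes and 0 of 24016 probe sets did either. The smallest adjusted p among the 85 was 0.925. At an unadjusted p under 0.05 there were 10 of the 85 genes, all lower, where 3.58% of all genes were lower at that level, and 1047 of all probe sets in either direction did so. Of the 85 differences, 75 were below 0, as were 48.5% of all genes, and the median was -0.33, beside 0.00 for all genes. With scaling to hybridisation controls 58 were below 0 and the median was -0.17. With single arrays left out the median was -0.38 to -0.20, the highest of these without healthy array 5. The median 95% interval reached 0.53 log2 units to either side, and 28 intervals reached below -1. For these 28 genes a 2-fold fall lies within the interval.

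The 3 genes with the smallest p below 0 were TIMM17B, MRPS16 and MRPL21. TIMM17B had 4.03, 4.35 and 4.68 in endometritis against 4.48, 4.70 and 4.86 in healthy milk, with a difference of -0.33 (SE 0.10, unadjusted p = 0.00356). MRPS16, of the small subunit, had 4.24, 4.56 and 4.89 against 4.71, 5.32 and 5.88 in healthy milk (-0.73, SE 0.22, unadjusted p = 0.00395). MRPL21, of the large subunit, had 4.81, 5.17 and 5.37 in endometritis against 5.38, 5.60 and 5.81 in healthy milk (-0.46, SE 0.16, unadjusted p = 0.0133). The TIMM17B and MRPS16 groups overlapped, and the MRPL21 groups did not.

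MRPL21 and MRPS17, another small subunit protein, were the 2 genes whose endometritis arrays all lay below the healthy ones, as in 0.24% of all genes. Above 0, the smallest p belonged to TOMM70 (0.22, SE 0.17), MRPS27 (0.21, SE 0.17) and MRPS9 (0.05, SE 0.05), with unadjusted p of 0.222 to 0.339. TOMM7 had a difference of -0.77 (SE 0.56) and TIMM8B one of -0.61 (SE 0.54), both with wide overlap. MRPL12 had one of -0.60 (SE 0.28). In 68 of the 85 genes the mean was lowest in mastitis, between the others in endometritis and highest in healthy milk. The comparisons share arrays, so this order is a description.

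**Figure D5:**
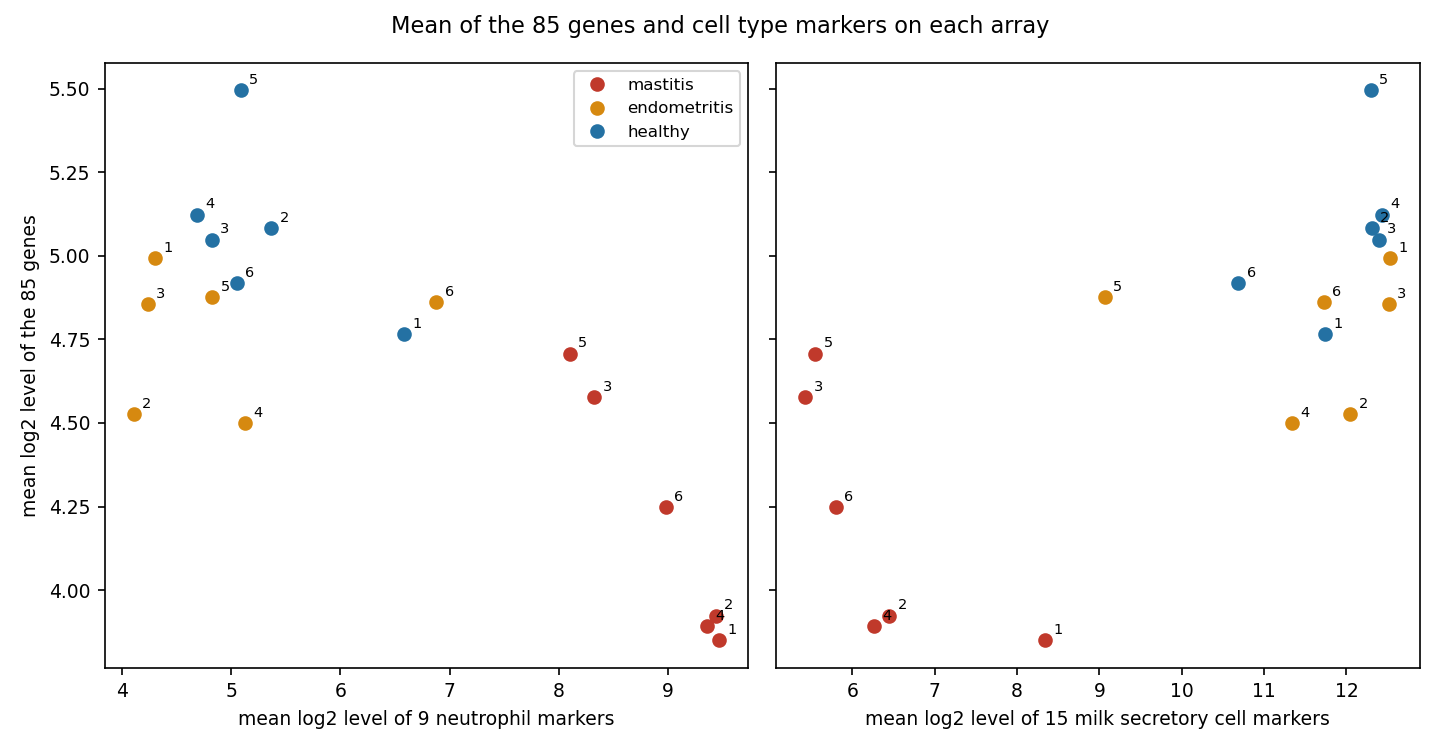
Mean log2 level of the 85 genes on each array against the mean log2 level of 9 neutrophil markers (left) and 15 milk secretory cell markers (right). Points are arrays, coloured by group and numbered by cow. The mastitis arrays reach 4.71 at most and every healthy array lies at 4.77 or higher, and the mastitis arrays have the highest neutrophil and lowest secretory means.

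Within the mastitis group the 85 genes differed between cows. Their mean level was 3.85, 3.92, 4.58, 3.89, 4.71 and 4.25 on mastitis arrays 1 to 6, from 4.50 to 4.99 on endometritis arrays and from 4.77 to 5.49 on healthy arrays. The mean over the neutrophil markers was 9.47, 9.44, 8.33, 9.36, 8.10 and 8.98 on mastitis arrays 1 to 6, so that the 3 mastitis arrays lowest in the 85 genes were the 3 highest in neutrophil markers. The same 3 arrays were also lowest in the mean over macrophage markers, with 6.39, 5.66 and 6.06 against 6.60 to 8.22 on the other mastitis arrays. The log2 summed level of the macrophage markers did not follow this order. It was 12.7, 12.5 and 12.1 on mastitis arrays 1, 2 and 4 against 11.9 to 12.4 on the others. These 3 arrays were lowest in the mean over T cell markers as well, with 3.03, 2.67 and 3.98 against 4.09 to 5.25. The part of each cell type was not tested. The secretory markers did not follow the same order: their mean was 8.34 on mastitis 1 and 5.43 to 6.45 on the others. In endometritis, arrays 2 and 4 were lowest in the 85 genes, with 4.53 and 4.50, and highest in T cell markers, with means of 6.08 and 6.68 against 3.69 to 4.17 on the other 4.

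The 85 genes stood beside 2 related groups. Of 85 genes for nuclear-encoded subunits of the respiratory chain and ATP synthase, 69 (81.2%) fell in mastitis against healthy milk and 0 rose (median -1.34). Of 65 genes for proteins of the cytosolic ribosome, 55 (84.6%) fell and 1 rose (median -1.14). Beside these shares stand 65.9% of the 85 members and 15.8% of all genes. Against endometritis 48 (56.5%) and 51 (78.5%) fell, beside 36.5% of the members and 10.9% of all genes. In endometritis against healthy milk 0 passed in either group (medians -0.48 and -0.05). No test of a difference between the groups was made.

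Other genes that serve import and mitochondrial translation were described from lists of partners that are not members. Against healthy milk their counts stand beside the 15.8% of all genes that were lower, or 22.5% of genes above background. Of 15 measured import partners 3 fell in mastitis against healthy milk (20%) and 0 rose (median -0.37), a share near that of all genes. MTX2, which helps to insert barrel proteins into the outer membrane, had 3.54, 4.45 and 5.36 in mastitis, 5.21, 5.96 and 6.78 in endometritis, and 5.64, 6.55 and 7.07 in healthy milk. It fell by 1.99 (SE 0.33, adjusted p = 0.0007), with no overlap of mastitis and healthy arrays. DNAJC19, of the import motor, fell by 1.26 (SE 0.27, adjusted p = 0.00396), and IMMP2L, a peptidase of the inner membrane, by 0.50 (SE 0.13, adjusted p = 0.0124). The chaperones HSPD1 and HSPE1, which fold imported proteins and were chosen after their values were seen, had differences of 0.71 and 0.59 that did not pass (adjusted p of 0.236 and 0.196).

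Of 14 measured translation factors and other ribosome proteins 4 fell (28.6%) and 1 rose (median -0.35). MTRF1, a release factor, fell by 0.62 (adjusted p = 0.00248), MRRF, which recycles ribosomes, by 0.85 (0.00804) and GADD45GIP1, a ribosomal protein under another name, by 1.64 (0.00828). TUFM, the factor that brings transfer RNA to the ribosome, fell by 0.71 (SE 0.24, adjusted p = 0.0463). TSFM, its exchange factor, had 4.60, 6.30 and 7.51 in mastitis, 3.10, 4.34 and 5.43 in endometritis, and 4.13, 4.56 and 5.32 in healthy milk, and rose by 1.53 (SE 0.49, adjusted p = 0.0366). TUFM and TSFM were chosen after their values were seen. The mastitis and healthy arrays of TSFM overlapped.

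Of 13 measured mitochondrial aminoacyl-tRNA synthetases 2 fell, RARS2 (-0.62, adjusted p = 0.0396) and NARS2 (-0.45, adjusted p = 0.0445), and the median was -0.03. Their share, 15.4%, was no higher than that of all genes. Of 13 ribosome assembly genes 2 fell, likewise 15.4%: MALSU1 (-1.51, SE 0.34, adjusted p = 0.00463), which keeps immature subunits apart, and MTG1 (-0.60, SE 0.12, adjusted p = 0.00205), a GTPase. Their median was -0.10. Of 6 regulators of mitochondrial genes 2 (33.3%) fell: TFB2M, a mitochondrial transcription factor (-1.03, SE 0.23, adjusted p = 0.00513), and PPARGC1A, a coactivator of mitochondrial biogenesis. PPARGC1A was at background on all 6 mastitis arrays and at least 1.43-fold lower there than in healthy milk (fitted adjusted p = 0.0446). In endometritis against healthy milk 0 genes of these 5 lists passed.

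Against endometritis the same lists held 3 lower of 15 import partners, 2 lower and 1 higher of 14 translation genes, 2 lower of 13 synthetases, 3 lower of 13 assembly genes and 1 lower of 6 regulators. These are 20%, 14.3%, 15.4%, 23.1% and 16.7% lower, where 10.9% of all genes and 15.5% of genes above background were lower. The lists are small, and no test of their shares against the array was made. TSFM rose by 1.81 in mastitis against endometritis (SE 0.49, adjusted p = 0.0196). GFM1, an elongation factor also picked with its value known, fell by 1.29 (adjusted p = 0.0194), MTRF1 by 0.40 (adjusted p = 0.0471) and TFB2M by 0.80 (adjusted p = 0.0293). The partner lists were examined only in the model of all 18 arrays with deposited values.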

How the data were processed

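RNA of milk cells from 18 cows (6 with mastitis, 6 with endometritis, 6 healthy) was hybridised to Affymetrix Bovine Genome Arrays, 1 array a cow, per the labels' protocols. The value table holds normalised log2 levels deposited by the authors. RMA, GCRMA and limma stand in the submitters' processing notes. Which of the first 2 made the table, and the base of the log, was not given in the sources used: log2 was read from the range, 2.43 to 14.2, and the values have a floor, as GCRMA leaves. Arrays have no read depth, and the number of arrays limits the precision. Of 24016 probe sets that are not controls, 13292 have 1 gene symbol, 86 several and 10638 none, and all 85 members matched RefSeq gene records by identifier, with TOMM70A listed as TOMM70. Other probe sets are given for called genes described in the text where they differ in direction or stay at background.

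One limma model (version 3.58.1 in R 4.3.3) with the 3 groups was fitted to all 18 arrays, with 15 residual degrees of freedom and Benjamini-Hochberg adjustment over 24016 probe sets. The fit was also run on simulated data with independent noise for each probe set. Such data lack the variation that probe sets share on these arrays, so that run does not show how reliable the calls are. For each gene the probe set brightest on average across the 18 arrays was used. A fold for a group at background on all 6 arrays was taken against the background median of 2.55. Each member list is described by its counts and median, without a set test. The members and lists were chosen with earlier results of these data known. Named genes were the 10 called members with the largest change in each direction in either mastitis comparison, the 3 of smallest p each way in endometritis, set landmark genes of import and translation, members in counts of 5 or fewer, called members whose probe sets disagree, and 3 genes of smallest p per partner list. The alternatives were the 12 arrays of 2 groups, a filter on dim probe sets, median centring, quantile normalisation, scaling to hybridisation controls, array weights, a trended and robust spread, a GAPDH 3′ to 5′ covariate, the mean over probe sets and each array left out. Leaving out healthy 3 and endometritis 3 together was chosen after seeing the data. No 2 arrays correlated above 0.984.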

Additional observations from a re-analysis of the deposited data

Results flagged for a closer look

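In each of the 3 groups of 6 arrays, the levels of 30 named genes and the mean level of the 85 genes, 93 sets of values in all, were examined for a highest or lowest array far from its neighbours relative to the group's whole range (a gap over 0.625 of it), and 4 sets, all of single genes, held one, where chance gives about 1 in 20. TOMM70 was 6.42 on healthy array 6, against a healthy median of 5.68. TIMM22 was 3.75 on endometritis array 3, against a median of 2.95, and this array also stood apart over all probe sets. TIMM22 was 3.23 on mastitis array 3, against a median of 2.95. MRPS9 was 2.55 on mastitis array 2, against a median of 2.49, with all 6 mastitis arrays at or under background.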

How the results depend on the processing

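The count of members lower in mastitis than in healthy milk was 46 to 57 with single arrays left out and 45 to 60 in the other alternatives, except for 18 with scaling to hybridisation controls and 17 with the GAPDH covariate. Against endometritis the count of 31 was 20 with the 12 arrays alone, 5 with scaling to hybridisation controls, 15 with array weights, 18 with the GAPDH covariate, 15 without healthy 3 and endometritis 3, and 16 to 44 with single arrays left out. There 1 member, MRPL45, was called higher with dim probe sets left out (0.88, adjusted p = 0.0443) and without mastitis 6 (1.04, adjusted p = 0.049), so that with single arrays left out 0 to 1 were higher. In endometritis against healthy milk 0 members passed in any alternative run. Some differences that never passed changed sign. With scaling to hybridisation controls, mastitis minus healthy was 0.00081 for MRPL12, 0.074 for TIMM22 and 0.13 for TIMM44, mastitis minus endometritis was 0.025 for TIMM22, and endometritis minus healthy was 0.049 for TIMM22 and 0.013 for TIMM9. With the GAPDH covariate these differences of TIMM22 were 0.11, 0.042 and 0.068. Endometritis minus healthy for TIMM44 was -0.023 with median centring, -0.011 with quantile normalisation, -0.018 with the GAPDH covariate, and -0.074 to 0.11 with single arrays left out. It was -0.022 for MRPS9 with median centring, and -0.028 to 0.16 for TOMM40 with single arrays left out. Mastitis minus endometritis for TIMM22 was 0.046 with array weights, 0.065 without healthy 3 and endometritis 3, and -0.12 to 0.065 with single arrays left out. The cause of these changes was not tested. By mean level, of the 28 members with the lowest levels 12 fell against healthy milk (42.9%, with 15.4% of all genes in that range of levels), of the 29 in the middle 22 (75.9% and 27.1%) and of the 28 highest 22 (78.6% and 28.3%). The median differences of these members were -0.44, -1.27 and -1.14, and the part of signal over background in them was not tested. No paired analysis was possible because the labels give the groups no shared replicate numbers: the numbers follow accession order and pair no cows.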
